A study of Mus musculus with 7 samples.

Results

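The 10 core circadian clock genes Arntl, Clock, Npas2, Per1, Per2, Per3, Cry1, Cry2, Nr1d1 and Nr1d2 were taken by gene name from a liver expression table of 54532 genes, and all 10 were found. RNA was measured in liver of old C57BL/6 mice, in 3 libraries from animals on a standard diet after MDL-800 supplementation and 4 libraries from control animals on a standard diet. MDL-800 binds and activates the deacetylase SIRT6, which uses NAD as its cosubstrate, and the design sets livers of supplemented animals against livers of control animals. The labels used here give no time of day for the collection of the livers, no sex and no statement on whether libraries come from different animals. The p-values therefore cover the variation among the 7 libraries, part of which may be technical. Y-linked and Xist reads, given below, differ among libraries within each diet, so those libraries are not all repeats of the same animal. Values are FPKM, the authors' deposited levels, which are scaled to gene length and to library size.

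The clock is a feedback loop of transcription that runs in nearly every cell. ARNTL (also called BMAL1) pairs with CLOCK or NPAS2 and binds E-boxes to switch on the Per, Cry and Nr1d genes. PER and CRY proteins then inhibit that pair, while NR1D1 and NR1D2 (REV-ERB alpha and beta) repress Arntl, Npas2 and Cry1 through RORE elements. In rodent liver the Arntl and Npas2 transcripts peak at about the opposite time of day to Nr1d1 and Dbp, and feeding time is a strong setting signal for this organ.

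On GRCm38, in the table's coordinates, the activator genes were Arntl (chr7:113207465-113314126, plus strand), Clock (chr5:76209868-76304792, minus strand) and Npas2 (chr1:39193731-39363236, plus strand). The Per genes were Per1 (chr11:69095217-69109960, plus strand), Per2 (chr1:91415982-91459324, minus strand) and Per3 (chr4:151003652-151044665, minus strand). The cryptochromes were Cry1 (chr10:85131700-85185064, minus strand) and Cry2 (chr2:92403646-92434043, minus strand), and the REV-ERB genes Nr1d1 (chr11:98767932-98775333, minus strand) and Nr1d2 (chr14:18204054-18239127, minus strand).

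The promoters of 4 members are shown because these members moved together or against each other across the libraries and their promoters hold a motif match. Those of Npas2, Nr1d2 and Clock held none and are not printed. They are RefSeq sequences on GRCm38.p6, 250 bases before to 50 after an annotated start, 5′ to 3′ on the strand of the gene, and 9 of the 10 members had an entry. Capitals mark matches, on either strand, to the E-box CACGTG, the related E-box variant CACGTT, the D-box TTATGTAA or TTACGTAA bound by DBP, TEF and HLF, the RORE core TAGGTCA or TGGGTCA, and the cyclic AMP response element TGACGTCA. In these promoters no match overlapped another.
Arntl, chr7:113207261-113207560, plus strand: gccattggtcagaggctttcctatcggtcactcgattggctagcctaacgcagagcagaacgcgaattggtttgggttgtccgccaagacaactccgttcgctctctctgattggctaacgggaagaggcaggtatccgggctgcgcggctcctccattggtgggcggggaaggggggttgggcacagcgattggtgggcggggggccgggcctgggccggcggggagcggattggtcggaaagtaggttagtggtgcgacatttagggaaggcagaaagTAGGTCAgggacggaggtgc
Nr1d1, chr11:98775328-98775627, minus strand: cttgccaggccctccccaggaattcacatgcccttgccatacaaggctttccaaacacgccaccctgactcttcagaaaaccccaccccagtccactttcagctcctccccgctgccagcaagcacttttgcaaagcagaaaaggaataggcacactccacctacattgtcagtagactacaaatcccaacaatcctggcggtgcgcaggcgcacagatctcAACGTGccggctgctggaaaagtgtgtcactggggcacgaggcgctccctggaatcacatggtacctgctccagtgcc
Cry1, chr10:85185005-85185304, minus strand: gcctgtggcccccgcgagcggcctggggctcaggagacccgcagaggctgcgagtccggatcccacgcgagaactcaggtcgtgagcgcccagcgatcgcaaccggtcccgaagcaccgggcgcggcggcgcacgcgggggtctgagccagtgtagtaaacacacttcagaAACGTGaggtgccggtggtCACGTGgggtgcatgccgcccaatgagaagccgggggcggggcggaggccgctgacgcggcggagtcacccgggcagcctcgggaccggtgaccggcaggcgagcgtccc
Per3, chr4:151044616-151044915, minus strand: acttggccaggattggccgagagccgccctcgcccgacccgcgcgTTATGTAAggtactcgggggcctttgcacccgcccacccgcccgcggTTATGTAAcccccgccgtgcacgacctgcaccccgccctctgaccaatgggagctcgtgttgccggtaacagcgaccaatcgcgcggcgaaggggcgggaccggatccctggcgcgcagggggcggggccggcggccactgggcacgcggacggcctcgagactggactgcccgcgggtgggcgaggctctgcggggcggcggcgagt
With the annotated start counted as 0, the Arntl promoter held a RORE core at 30 to 36, and the Per3 promoter held D-boxes at -205 to -198 and at -158 to -151. The Cry1 promoter held an E-box at -60 to -55 and the variant at -79 to -74, and the Nr1d1 promoter held the variant at -28 to -23. Of 32851 mouse promoters of this length, 6.45% held the RORE core, 1.06% a D-box, 7.15% the E-box, 4.68% the variant and 1.79% the cyclic AMP response element. Arntl had another listed start, whose promoter held no match. Further matches among the members were an E-box in 1 of the 2 Per1 promoters (-166 to -161) and the variant in the Cry2 promoter (-166 to -161). A match is a description of these letters and not a measured binding site.

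Whole reads recovered from the deposited values summed to 17600066 to 19920469 per library. MDL-800 2 and control 1 stood apart: they held 3514 and 2173 reads of Uty, Kdm5d, Ddx3y and Eif2s3y, all on the Y chromosome, and the other 5 libraries held 0. Reads of Xist, the X-inactivation transcript, numbered 3 in each of those 2 libraries, 15495 to 21104 in 4 others and 0 in control 3, so the 5 libraries with no Y-linked reads are not alike. The first principal component (49.6% of the variance over the 11394 genes averaging 1 FPKM or more) placed the same 2 libraries at 49.9 and 49.7, and the others between -39.1 and -12.8. Hepatocyte markers led every library, with 5 genes summing to 55367 to 56325 FPKM in MDL-800 and 53983 to 81287 FPKM in control. The 4 Kupffer cell markers summed to 84.8 FPKM in MDL-800 2 and 100.2 FPKM in control 1, below the other MDL-800 livers (392 and 324 FPKM) and the other controls (195 to 742 FPKM). Sums for the remaining marker lists, in MDL-800 and then control livers, were 17.7 to 24.2 and 7.23 to 28.1 FPKM for sinusoidal endothelium (4 genes), 36.3 to 52.6 and 15.8 to 43.3 FPKM for stellate cells (3 genes), and 0.990 to 3.40 and 1.01 to 2.02 FPKM for cholangiocytes (3 genes). They were 0.937 to 7.79 and 1.05 to 28.9 FPKM for T and B cells (3 genes), and 11.2 to 74.9 and 21.1 to 271 FPKM for neutrophils (2 genes). Control 4 held the lowest endothelial and stellate sums of all libraries (7.23 and 15.8 FPKM). It also held the highest hepatocyte and T and B cell sums (81287 and 28.9 FPKM). Control 2 held the highest Kupffer cell and neutrophil sums (742 and 271 FPKM). Of the 3 exocrine pancreas markers Cpa1 was listed at 0 in all 7 libraries and Prss2 at no more than 0.0867 FPKM. Cela1, the remaining one, stood at 5.497, 20.1 and 4.84 FPKM in MDL-800 1 to 3, against 19.6, 11.6, 7.14 and 5.0003 FPKM in control 1 to 4, highest in the libraries with Y-linked reads. In bulk liver, fewer cells of a type and less RNA per cell cannot be told apart, and the part of cell makeup in the clock values was not tested.

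Arntl, the partner that every active clock complex needs, was lowest in the 2 libraries with Y-linked reads, 1 from each group. It stood at 3.37, 1.25 and 2.82 FPKM in MDL-800 1, 2 and 3, against 1.33, 3.59, 4.29 and 2.85 FPKM in control 1, 2, 3 and 4. The highest and lowest libraries were thus control 3 and MDL-800 2, a span of 3.44-fold, and the groups overlapped. MDL-800 livers averaged 2.48 ± 1.10 FPKM (SD, n = 3) and control livers 3.01 ± 1.27 FPKM (SD, n = 4).

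Npas2, the CLOCK paralog that can take its place beside ARNTL, had the same order of libraries as Arntl and a wider span. It stood at 2.33, 0.215 and 1.40 FPKM in MDL-800 1 to 3, against 0.331, 2.85, 3.97 and 1.57 FPKM in control 1 to 4, a span of 18.5-fold. The lowest values rested on 16 reads in MDL-800 2 and 23 reads in control 1, so their own ratio is imprecise. Clock itself was nearly level, at 4.25, 3.73 and 3.69 FPKM in MDL-800 1 to 3, against 4.30, 3.14, 4.32 and 3.22 FPKM in control 1 to 4. Its span was 1.38-fold, and control 1, among the lowest for Arntl, was among the highest for Clock.

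Nr1d1, the REV-ERB alpha repressor, was the most variable member, and its libraries ran in exactly the reverse order of Arntl. It stood at 9.01, 41.6 and 21.3 FPKM in MDL-800 1 to 3, against 40.8, 4.19, 1.70 and 9.28 FPKM in control 1 to 4. The span between MDL-800 2 and control 3 was 24.5-fold and rested on 1990 and 74 reads. Nr1d2, its REV-ERB beta paralog, followed the same order at 6.37, 24.5 and 11.6 FPKM in MDL-800 1 to 3, against 17.5, 3.99, 3.34 and 8.60 FPKM in control 1 to 4. The groups overlapped for both genes, with libraries of each at the top. Nr1d1 shares 263 of its 3077 exonic bases (GENCODE M21) with Thra on the opposite strand, and the library chemistry does not mark strand. Thra itself ranged only from 3.24 to 4.39 FPKM in MDL-800 and from 2.47 to 3.58 FPKM in control.

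The Per genes encode the inhibitors of the loop, and Per2 and Per3 were highest where Arntl was lowest. Per2 stood at 1.73, 4.46 and 1.54 FPKM in MDL-800 1 to 3, against 3.10, 1.17, 1.04 and 2.54 FPKM in control 1 to 4. Per3 stood at 0.319, 2.68 and 0.498 FPKM in MDL-800 1 to 3, against 1.44, 0.332, 0.309 and 0.769 FPKM in control 1 to 4. For both, MDL-800 2 was highest, control 1 next and control 3 lowest. Per1 kept another order, at 0.678, 3.70 and 3.23 FPKM in MDL-800 1 to 3, against 2.79, 1.20, 1.64 and 8.38 FPKM in control 1 to 4. Its highest library was control 4, with 696 reads, and its lowest MDL-800 1, with 66 reads. The ratio of Per1 to Per2 was 0.392, 0.830 and 2.1 in MDL-800 1 to 3, against 0.902, 1.02, 1.58 and 3.31 in control 1 to 4. Per1 is also a direct target of the glucocorticoid receptor. Of other responsive genes, Tsc22d3 stood at 18.2, 35.5 and 19.3 FPKM in MDL-800 1 to 3, against 26.1, 19.0, 14.3 and 45.4 FPKM in control 1 to 4. Like Per1 it was highest in control 4 and next in MDL-800 2. Fkbp5 was also highest in control 4 (9.95 FPKM) but stood at 1.96 FPKM in MDL-800 2. Sgk1 and Tat were highest in control 3 (12.2 and 929 FPKM) and Dusp1 in control 2 (14.3 FPKM). The part of that signal in Per1 was not tested.

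The cryptochromes inhibit CLOCK and ARNTL together with PER. Cry1 stood at 5.55, 2.54 and 3.36 FPKM in MDL-800 1 to 3, against 2.68, 4.68, 5.62 and 3.49 FPKM in control 1 to 4, so its low libraries were those of Arntl. Cry2 stood at 3.85, 7.21 and 4.26 FPKM in MDL-800 1 to 3, against 5.32, 2.85, 4.85 and 3.60 FPKM in control 1 to 4. MDL-800 2 was thus lowest for Cry1 and highest for Cry2, while control 3 was highest for Cry1 and the third for Cry2. Cry1 with Cry2 had r = -0.58 over the libraries (exact permutation p = 0.174, adjusted p = 0.27 over 45 pairs). Cry2 shares 295 of 6320 exonic bases with D930015M05Rik on the opposite strand, which reached at most 0.865 FPKM in MDL-800 and 0.570 FPKM in control.

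**Figure D1:**
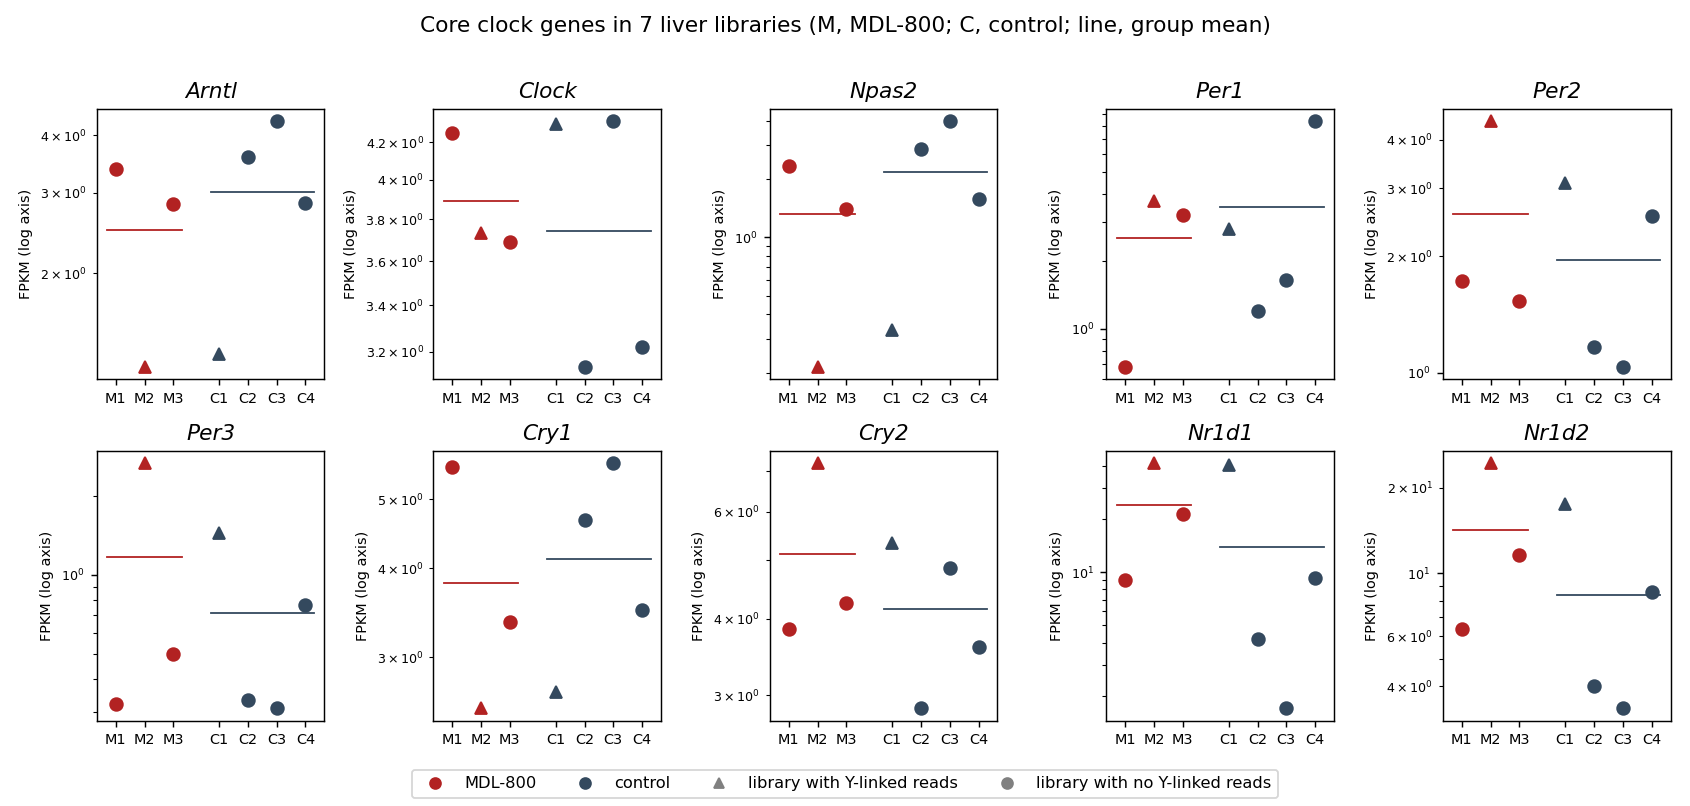
FPKM of each core clock gene (log axis, its range set per gene) in MDL-800 livers M1 to M3 (red) and control livers C1 to C4 (blue), with a line at each group mean and triangles for libraries with Y-linked reads. The triangles M2 and C1 are lowest for Arntl, Npas2 and Cry1 and highest for Per2, Per3, Cry2, Nr1d1 and Nr1d2, and the groups overlap in all 10 panels.

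By median level over the 7 libraries the members ran from Nr1d1 (9.28 FPKM) and Nr1d2 (8.60 FPKM) through Cry2 (4.26), Clock (3.73), Cry1 (3.49), Arntl (2.85) and Per1 (2.79) to Per2 (1.73), Npas2 (1.57) and Per3 (0.498 FPKM). The range over libraries of each gene overlapped that of its neighbours in this order. On the log2(FPKM + 1) scale, the SD of Nr1d1 over the libraries was 1.502 and larger than that of 98.9% of 11394 genes tested. Nr1d2 exceeded 95.6% of them, Per1 93.7% and Npas2 92.6%. Clock lay at the other end, with an SD of 0.15 that exceeded 25.1%.

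Relations between members were read from pairs across the 7 libraries, 45 pairs in all, on the log2(FPKM + 1) scale. With no time of day in the labels, they show variation together or in opposition and not a measured phase. Arntl, Npas2 and Cry1 varied together, and Nr1d1, Nr1d2 and Per3 varied against them. Per2 varied against Arntl and Npas2, while Per2 with Cry1 missed the threshold (r = -0.84, exact permutation, adjusted p = 0.0548). Clock, Per1 and Cry2 were in no pair that passed. Livers of MDL-800 and control were pooled here. By exact two-sided permutation of Pearson's r with Benjamini-Hochberg adjustment over the 45 pairs, 18 pairs passed at 0.05, 7 with r above 0 and 11 below. Spearman's rho gave 20, including the same 18. Nr1d1 with Per2 (r = 0.84) and with Per3 (r = 0.80) passed by rho only. The share of passing pairs among other genes was not tested, so these counts do not show a pattern particular to the clock. Among 11394 genes, Npas2 and Cry1 were the 4th and 120th most like Arntl. Nr1d2, Nr1d1 and Per2 were the 80th, 179th and 189th most opposed to Arntl. Without control 3, which held neither Y-linked nor Xist reads, 19 pairs passed by Pearson's r, and r was -0.92 for Arntl with Nr1d1 and 0.99 for Arntl with Npas2. Arntl and Npas2 had r = 0.99 (exact permutation p = 0.000198, the smallest that 5040 pairings can give for r, adjusted p = 0.00298) and rho = 1 (exact p = 0.000397, adjusted p = 0.00298).

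Control 3 stood first for Arntl, then control 2, MDL-800 1, control 4, MDL-800 3, control 1 and MDL-800 2. Npas2 ran in that order, and Nr1d1 and Nr1d2 in its reverse. Libraries of both diets are interspersed along this order. Some neighbours lay too close to be ordered with confidence, such as Arntl in MDL-800 3 and control 4 (2.82 and 2.85 FPKM, on 373 and 316 reads).

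Arntl and Nr1d1 had r = -0.93 (exact permutation p = 0.00139, adjusted p = 0.00804) and rho = -1 (exact p = 0.000397, adjusted p = 0.00298). Arntl and Nr1d2 had r = -0.95 (exact permutation p = 0.000198, adjusted p = 0.00298), and Nr1d1 and Nr1d2 r = 0.97 (exact p = 0.000992, adjusted p = 0.00744). The ratio of Nr1d1 to Arntl, both per length, was 2.67, 33.3 and 7.55 in MDL-800 1 to 3, against 30.7, 1.17, 0.396 and 3.26 in control 1 to 4. It was below 1 in control 3 only and near 1 in control 2.

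The same 2 libraries, MDL-800 2 and control 1, are the farthest from the median of Arntl, so leaving them out also leaves the 5 libraries with no Y-linked reads. Within those 5, r was 0.995 for Arntl with Npas2, -0.93 with Nr1d1, -0.94 with Nr1d2 and 0.87 with Cry1. It was -0.78 with Per2 and -0.77 with Per3, weaker than the values over 7 libraries (r = -0.93, exact permutation p = 0.00179, adjusted p = 0.00804 and r = -0.94, exact permutation p = 0.000992, adjusted p = 0.00744). These 5 are too few for a test of their own. All 18 pairs that passed kept their sign without the 2 libraries farthest from the median of the first gene of the pair.

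Arntl with Cry1 had r = 0.91 (exact permutation p = 0.00456, adjusted p = 0.0137) and rho = 0.96 (exact p = 0.00278, adjusted p = 0.0114). That pair missed the threshold without control 2 (adjusted p = 0.0852) or without control 3 (adjusted p = 0.0729). Arntl with Cry2 had r = -0.72 (exact permutation p = 0.0704, adjusted p = 0.132) and rested on the 2 outer libraries, since r was 0.25 without them. It passed without control 3 (r = -0.92, adjusted p = 0.0188, exact permutation). Arntl with Per1 had r = -0.41 (exact permutation p = 0.36, adjusted p = 0.45), and Arntl with Clock r = -0.12 (exact permutation p = 0.781, adjusted p = 0.879). Per1 with Per2 had r = 0.54 (exact permutation p = 0.214, adjusted p = 0.321), and r = 0.78 without MDL-800 1 and control 4.

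**Figure D2:**
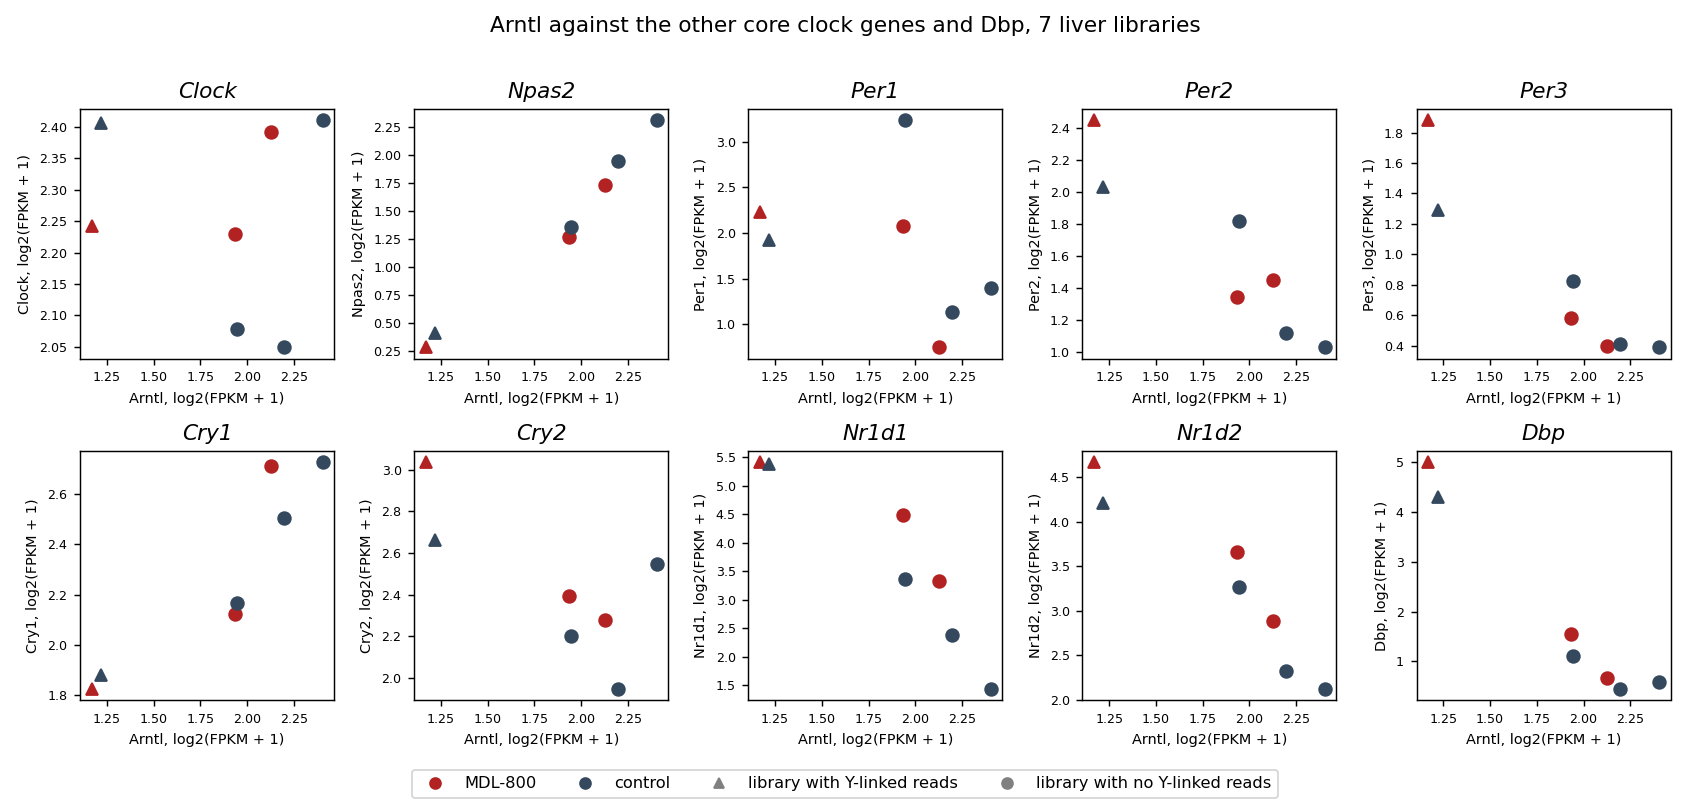
Each panel sets Arntl (x axis) against another core clock gene or Dbp (y axis), both as log2(FPKM + 1), with 1 point per library, MDL-800 red, control blue and libraries with Y-linked reads as triangles. Npas2 and Cry1 rise with Arntl (r = 0.99 and 0.91), Nr1d1 and Nr1d2 fall with it (r = -0.93 and -0.95), and Clock does neither (r = -0.12).

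**Figure D3:**
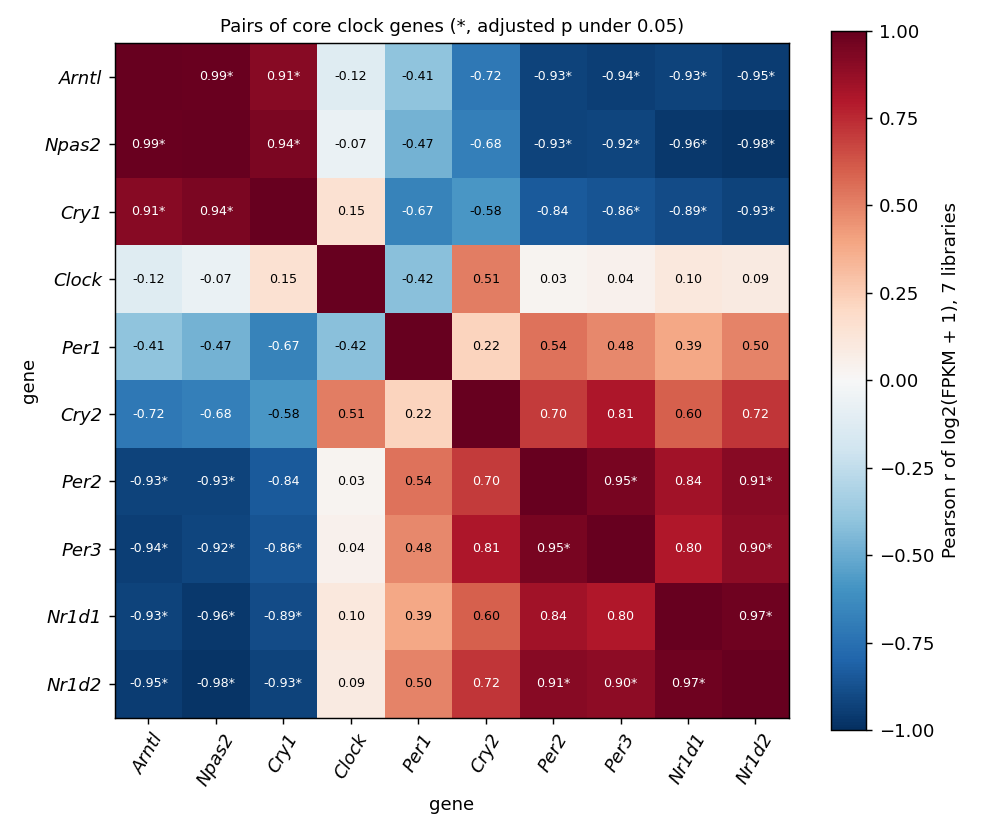
Pearson r over 7 libraries for each pair of core clock genes, from -1 (blue) to 1 (red), with a star where the exact permutation p adjusted over 45 pairs is under 0.05. The block Arntl, Npas2 and Cry1 is red within itself and blue against Per2, Per3, Nr1d1 and Nr1d2, and 18 pairs carry a star, none of them with Clock, Per1 or Cry2. Per2 with Cry1 carries none (adjusted p = 0.0548).

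No core clock gene passed the test of MDL-800 against control livers across all genes. This was limma on log2(FPKM + 1) over genes averaging 1 FPKM or more, with Benjamini-Hochberg adjustment over 11394 genes, and 9 members entered it. Per3 had a mean under 1 FPKM and was tested without that filter. Of the 9 tested members 0 passed at an adjusted p of 0.05, where 0% of all genes passed, and 0 had an unadjusted p under 0.05, where 4.85% of all genes had one. Limma voom on recovered reads also called 0 members. The groups overlapped for all 10 members, while 6.45% of genes tested had groups that did not overlap. Of the 9 members 5 were above 0 and 4 below, with a median of 0.05, beside 6173 of 11394 above 0 and a median of 0.02 over all genes.

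The widest differences were those of the REV-ERB genes. Nr1d1 averaged 24.0 ± 16.5 FPKM in the 3 MDL-800 livers (SD) and 13.98 ± 18.1 FPKM in the 4 control livers (SD), a log2 fold change of 1.27 with a 95% interval from -0.96 to 3.50 (limma adjusted p = 0.95). Nr1d2 averaged 14.2 ± 9.32 and 8.36 ± 6.52 FPKM in the same groups, with a log2 fold change of 0.76 (-0.67 to 2.19, limma adjusted p = 0.95). Within the 5 libraries with no Y-linked reads, MDL-800 1 and 3 against control 2, 3 and 4, Nr1d1 was at 1.51 (-0.11 to 3.14, limma adjusted p = 0.918) and Nr1d2 at 0.70 (-0.36 to 1.77). In that set MDL-800 1 lay below control 4 for both genes (9.01 and 9.28 FPKM for Nr1d1, 6.37 and 8.60 FPKM for Nr1d2), so the groups still overlapped.

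Npas2 had a log2 fold change of -0.41 (-1.64 to 0.81, limma adjusted p = 0.95), Arntl -0.20 (-0.99 to 0.60), Per1 -0.24 (-1.59 to 1.12) and Cry1 -0.10 (-0.74 to 0.54). Per2 was at 0.25 (-0.61 to 1.10), Cry2 at 0.23 (-0.34 to 0.81) and Clock at 0.05 (-0.25 to 0.36). Per3, without the filter, was at 0.23 (-0.74 to 1.20). The interval of Clock was the narrowest of the members, and those of Nr1d1, Nr1d2, Npas2, Per1, Per2 and Per3 include a 2-fold change on this scale. The sign turned without MDL-800 2 for Arntl, Per2, Cry1 and Cry2, without MDL-800 1 for Clock and Per1, without control 2 for Clock, without control 3 for Cry1, and without control 4 for Clock and Per1. Without any 1 of the 7 libraries Nr1d1 stayed between 0.70 and 2.02, Nr1d2 between 0.29 and 1.19 and Npas2 between -0.78 and -0.0076.

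**Figure D4:**
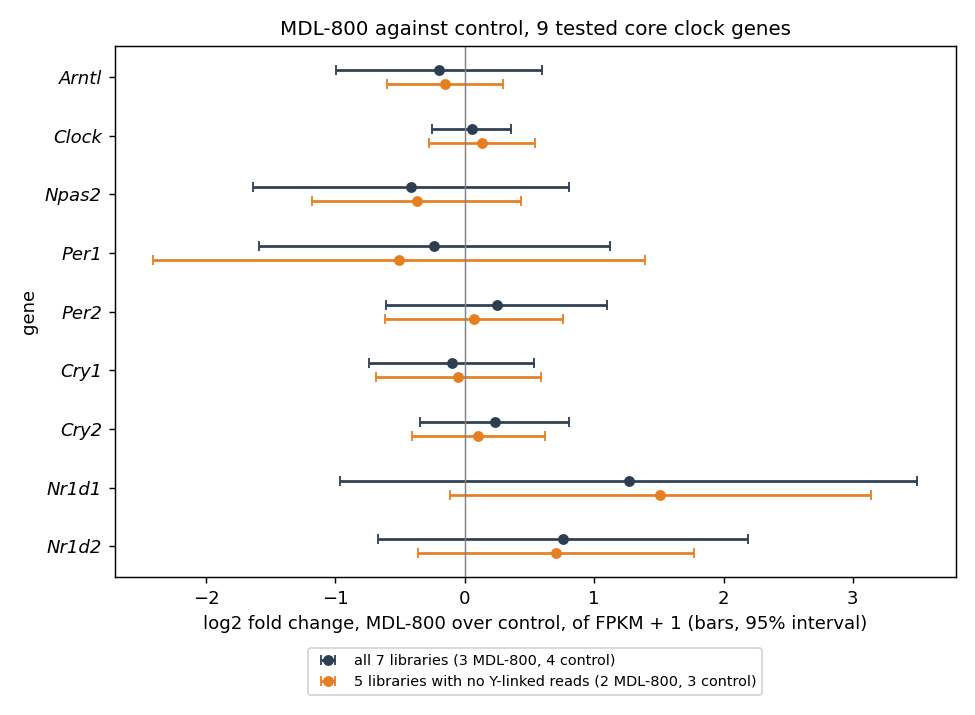
Log2 fold change of MDL-800 over control with its 95% interval (limma, log2(FPKM + 1)) for 9 core clock genes, over all 7 libraries (dark) and over the 5 libraries with no Y-linked reads (orange). Every interval includes 0, and the highest values are those of Nr1d1 (1.27 and 1.51).

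The 2 libraries with Y-linked reads differed from the other 5 in 276 genes, 151 higher and 125 lower. This grouping by reads was made after the data were seen. The Y-linked genes that define it were not taken out of the test, so any averaging 1 FPKM or more can enter the counts by construction. The count was 82, 84 and 93 without MDL-800 1, 2 and 3, and 38 without control 1. With summed reads as the denominator it was 88 higher of 211, and the median of all genes was -0.07 in place of 0.08 (-0.09 with voom). A limma fit with a term for those reads beside the diet called 1 of the 9 members, Arntl, where 2.42% of 11394 genes passed, and 7 of 9 had an unadjusted p under 0.05, where 22.7% of all genes had one. Arntl was lower in MDL-800 2 and control 1 by a log2 difference of -0.92 (SE 0.15, adjusted p = 0.0401, lower in both than in each of the 5). That call ended without MDL-800 1, 2 or 3, without control 1 or 2, without the filter and with quantile normalization (adjusted p from 0.0531 to 0.434), with a difference of -0.82 to -0.96.

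Npas2 was at -1.35 (adjusted p = 0.0686), Cry1 at -0.59, Nr1d1 at 2.30 (adjusted p = 0.111), Nr1d2 at 1.53 (adjusted p = 0.0855), Per2 at 0.87 and Cry2 at 0.56 by the same limma term. Per3, tested without the filter, was at 1.05 (limma adjusted p = 0.1325). These values did not pass, though Npas2 passed with a pseudocount of 0.1 or without control 4, and Per2 and Nr1d2 passed without control 4. Per1 was at 0.39 (limma adjusted p = 0.75), and Clock at 0.09 (limma adjusted p = 0.741), with its sign turned by summed reads as the denominator and by voom (-0.058 and -0.077). With a single library of each diet holding Y-linked reads, anything else those 2 livers share cannot be told apart from the reads themselves.

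Of the transcription factors that the clock drives, Dbp, an activator at D-boxes, showed the same split in its clearest form. Dbp stood at 0.580, 31.1 and 1.94 FPKM in MDL-800 1 to 3, against 18.8, 0.361, 0.496 and 1.16 FPKM in control 1 to 4, on 21 to 1446 reads. Its log2 difference with Y-linked reads was 3.74 (SE 0.29, limma adjusted p = 0.0025), and the call ended without control 1 (adjusted p = 0.0648). Between diets Dbp was at 0.80 (limma adjusted p = 0.951) and turned to -0.50 without MDL-800 2. Tef, its relative, stood at 5.17, 26.3 and 7.23 FPKM in MDL-800 1 to 3, against 19.7, 4.01, 4.99 and 10.1 FPKM in control 1 to 4. Its difference with Y-linked reads was 1.75 (limma adjusted p = 0.0509). It passed with a mean of at least 5 FPKM, with voom or without control 4.

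The values of the other 6 factors reported follow. Hlf, the remaining D-box activator, stood at 6.73 to 11.3 FPKM in MDL-800 and 4.66 to 9.41 FPKM in control. Nfil3, which represses at D-boxes, ran from 16.8 to 25.7 FPKM in MDL-800 and from 15.0 to 39.0 FPKM in control. Bhlhe40, an E-box repressor, ran from 12.5 to 31.9 FPKM in MDL-800 and from 12.7 to 25.7 FPKM in control, highest in MDL-800 2 and control 1. Rora, an activator at ROREs, ran from 4.59 to 7.21 FPKM in MDL-800 and from 3.89 to 5.73 FPKM in control. Bhlhe41 and Ciart, both repressors of the loop, had means under 1 FPKM and spanned 12.0-fold and 18.9-fold over the libraries, against 6.56-fold for Tef. Of the 6 factors tested between diets 0 passed and 5 were above 0, and their median was 0.29 (log2).

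In the other clock lists 0 genes passed between MDL-800 and control. Of 15 modifiers and partners of clock proteins 10 lay above 0 and the median was 0.06 (log2). Those with the lowest p were Fbxw11, a ubiquitin ligase component that recognises PER, at 0.18, and Ncor1, the corepressor recruited by REV-ERBs, at 0.20. Of 15 rhythmic liver output genes 8 were above 0, with a median of 0.05. Noct, a rhythmic phosphatase, stood at 6.01, 13.8 and 6.34 FPKM in MDL-800 1 to 3, against 16.7, 16.9, 16.7 and 42.1 FPKM in control 1 to 4, and its groups did not overlap. Its log2 fold change was -1.28 (SE 0.41, limma adjusted p = 0.95). Wee1, a cell cycle kinase under E-box control, had groups that did not overlap either (1.20 to 2.50 FPKM in MDL-800 and 0.930 to 1.13 FPKM in control). Its log2 fold change was 0.38 (limma adjusted p = 0.95). Both genes were named for having the lowest p of their list, and 6.45% of all genes tested had groups that did not overlap. Of 10 tested genes that respond to glucocorticoids or temperature 2 were above 0, with a median of -0.12, and Tat and Rbm3 had the lowest p (-0.43 and -0.25).

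With Y-linked reads, 2 of the 15 rhythmic output genes passed, 0 of the 15 modifiers, and 2 of the 10 glucocorticoid or temperature genes (Fkbp5 at -1.59 and Hspa1b at 1.68), where 2.42% of all genes tested passed. Without control 1 the calls over all genes fell to 38, and of these 4 genes only Elovl3 still passed (limma adjusted p = 0.00448), with Gys2 at 0.512, Fkbp5 at 0.288 and Hspa1b at 0.429. Gys2 also missed the threshold without any 1 of MDL-800 1, 2 and 3 and control 2 and 3, Fkbp5 without MDL-800 1 or 3, and Hspa1b without any 1 of the others but MDL-800 2. Elovl3, a fatty acid elongase under REV-ERB control with male-biased expression in mouse liver, stood at 0.542, 108 and 0.420 FPKM in MDL-800 1 to 3, against 141, 1.996, 1.80 and 0.863 FPKM in control 1 to 4. Gys2, liver glycogen synthase, stood at 35.2, 79.5 and 42.7 FPKM in MDL-800 1 to 3, against 78.4, 23.7, 25.3 and 37.9 FPKM in control 1 to 4. Their log2 differences were 6.01 and 1.24 by limma (adjusted p = 8.61e-05 and 0.0489). Cyp7a1, the rate-limiting enzyme of bile acid synthesis, was lowest in the same libraries (51.2, 5.33 and 12.6 FPKM in MDL-800 1 to 3, against 1.04, 21.8, 44.3 and 27.0 FPKM in control 1 to 4) and did not pass (limma adjusted p = 0.0704).

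Over the 7 libraries the genes most like Arntl among 11394 were Tspan13, Ankrd13a, Trim12c, Npas2 and A1bg, with r from 0.988 to 0.992. Npas2 was thus the 4th of all genes by likeness to Arntl, and Cry1 (r = 0.91) came at rank 120. The genes most opposed to Arntl were Col27a1, Nox4, Hsd3b2, Dpy19l1 and Ypel5, with r from -0.994 to -0.989. Counted from the most opposed gene, Nr1d2 came at rank 80, Nr1d1 at 179, Per2 at 189, Cry2 at 1711 and Per1 at 4301. A1bg stood at 389, 0.0268 and 278 FPKM in MDL-800 1 to 3, against 0.0287, 922, 2579 and 432 FPKM in control 1 to 4. Its low libraries were those with Y-linked reads, so a likeness to Arntl over these 7 libraries also picks genes that differ with those reads.

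The genes most like Nr1d1 were Tgfa, Fgd6, Fchsd2, Apc and Sfxn5, with r from 0.983 to 0.991, and Nr1d2 (r = 0.97) came at rank 14. The most opposed were Taf7, Chic1, Slc13a3, Tgm1 and Loxl4, with r from -0.992 to -0.966. Counted from the most opposed gene, Npas2 came at rank 7, Arntl at 39 and Cry1 at 83. Chic1 stood at 2.29, 0.262 and 0.888 FPKM in MDL-800 1 to 3, against 0.196, 2.65, 3.70 and 1.62 FPKM in control 1 to 4. These likenesses are descriptions over 7 points that share the 2 libraries standing apart.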

How the data were processed

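Mouse liver RNA in 7 libraries was sequenced after low-input SMARTer cDNA synthesis and an NEBNext library kit, per the labels' protocols. The authors deposited 1 table of FPKM per gene. The submitters' processing notes list Cufflinks 2.2.1, TopHat2 2.0.14, Bowtie2 2.1.0 and mm9, without roles. Yet the table's coordinates are GRCm38, since 53756 of its 54409 identifiers found in GENCODE M21 start at the same base.

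Multiplied by gene length, the deposited FPKM fell on steps of 1 read in each library (100% of values above 0, tolerance 0.01), and this gave reads per gene. Their sums were 0.995 to 1.28 times the authors' denominator, so another denominator shifts whole libraries.

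The diets were compared with limma 3.58.1 in R 4.3.3 (trend, two-sided) on log2(FPKM + 1), over genes averaging 1 FPKM or more. This scale understates the changes of low genes. Pairs of members were tested by exact permutation in Python 3.11.15, and plots drawn with matplotlib 3.10.9. The fit was tested on simulated data, where it called 53.6% of 2-fold changes, 81.6% of 4-fold changes and 0.0554% of unchanged genes. Noise there was drawn for each gene on its own, without the shared split between libraries seen here. Its size was taken on the log2(FPKM + 1) scale but applied before the 1 was added, which can understate the noise of genes with low FPKM. The changed genes were drawn at random from those tested, while every member but Clock had an SD larger than that of at least 73.5% of them. These shares therefore may not hold for the real libraries or for the members. The members, lists and markers were chosen with earlier results of these data known, and so was the use of Y-linked reads. The text names all members, the clock-driven factors (1 further factor is not reported here), the 2 genes with the lowest p of each other clock list, and the 5 genes most and least like Arntl and Nr1d1. Elovl3, Gys2, Cyp7a1, Fkbp5, Hspa1b, Sgk1, Dusp1, Cela1 and Tsc22d3 were named after their values were seen. Alternatives were a pseudocount of 0.1, no filter or a mean of 5 FPKM, quantile or median scaling, summed reads as the denominator, voom, a replicate block, a term for Y-linked reads, the libraries without them alone, and leaving out each library.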

Additional observations from a re-analysis of the deposited data

Results flagged for a closer look

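In 24 genes the 4 control libraries were examined for a library far from the other 3, by the gap to the nearest library over the whole range, at a limit (Dixon) that chance exceeds in about 1 of 20 groups. It was exceeded for 2 genes, both through control 4. Noct stood at 42.05 FPKM in control 4, with the other controls at 16.7 to 16.9 FPKM, and its log2 fold change of -1.28 was -0.96 without that library. Fbxw11 stood at 5.847 FPKM in control 4, below the other controls at 7.52 to 7.82 FPKM. No core clock gene was among them.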

How the results depend on the processing

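Between MDL-800 and control 0 genes passed under each alternative that kept all 7 libraries, and 0 to 1 when a library was left out, with no core clock gene among the calls (limma adjusted p from 0.584 to 1 over members and alternatives). The replicate block turned Clock to -0.00069, Per1 to 0.20 and Rbm3 to 0.018 and called 0 genes. Only control has a replicate 4, so under the block control 4 adds nothing to the diet estimate. These fold changes are therefore the same as those without control 4, and the sign turns of the block are not separate from those of leaving that library out. Same-numbered libraries did not deviate together (r of their deviations -0.59, -0.55 and 0.057). MDL-800 2 and control 1, the libraries with Y-linked reads, did (r = 0.77). They carry different numbers and weigh on the other values, so this check cannot decide whether the numbers pair libraries. Bhlhe40 was at -0.069 in the libraries with no Y-linked reads. Leaving out 1 library turned the sign of some log2 fold changes, which ranged from -0.44 to 0.090 for Arntl, -0.010 to 0.11 for Clock, -0.51 to 0.23 for Per1, -0.10 to 0.45 for Per2, -0.35 to 0.097 for Cry1, -0.0036 to 0.38 for Cry2, -0.50 to 1.70 for Dbp, -0.35 to 0.72 for Tef, -0.40 to 0.043 for Nfil3, -0.22 to 0.42 for Bhlhe40 and -0.45 to 0.018 for Rbm3. The cause was not tested. The count of genes that differed with Y-linked reads was 276, 159 without a filter (more genes tested) and 38 to 409 when a library was left out. It was 82, 84 and 93 without MDL-800 1, 2 and 3 and 38 without control 1. The Clock difference with those reads was -0.058 with summed reads as the denominator, -0.077 with voom and -0.069 to 0.23 when a library was left out. Pairs of members past the threshold numbered 18, and 15 to 20 under the alternatives, with r of Arntl and Clock from -0.44 to 0.18. Depth limits Npas2 in the 2 libraries at 16 and 23 reads.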
